A study of Mus musculus with 6 samples.

Results

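The chromatin around 10 genes of the pluripotency and primordial germ cell programme was examined in spermatogonia-enriched samples: Pou5f1, Nanog, Sox2, Klf4, Esrrb, Tfcp2l1, Dppa3, Prdm14, Zfp42 and Tfap2c. The genes were chosen by name, out of 21436 mouse protein-coding genes whose 5′ end could be placed on GRCm38 (mm10), the build of the peak lists. For each gene, every ATAC-seq peak was taken that overlapped the gene or the 10 kb on either side of it. A peak within 3 kb of the 5′ end was called a promoter peak. ATAC-seq uses the Tn5 transposase, which inserts sequencing adapters into open chromatin, so that a peak marks a stretch of DNA that was accessible in the sampled cells. Peaks were available for 6 libraries from testes at postnatal day (Pnd) 5: S7KO replicates 1, 2 and 4, from Sirt7-/- mice that lack the deacetylase SIRT7 in every cell, and WT replicates 1, 2 and 4, from wild-type mice. Both genotypes shared 1 inbred background, and the cells had been enriched for spermatogonia by plating, which removes adherent somatic cells. The design held 1 contrast, S7KO against WT, which asked whether loss of SIRT7 altered accessible chromatin.

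Pou5f1 (OCT4), Sox2 and Nanog encode the core transcription factors of pluripotent cells, which bind DNA together and sustain one another's expression. Klf4, Esrrb, Tfcp2l1 and Zfp42 (REX1) belong to the wider network of naive embryonic stem cells. Prdm14 and Tfap2c (AP-2γ), together with Prdm1 (BLIMP1), specify primordial germ cells, the embryonic founders of the germ line, and Dppa3 (STELLA) is an early mark of these cells. The embryonic germ line switches several of these genes on again and silences them as male germ cells mature, whereas Klf4 is also used by somatic testis cells. A peak shows that DNA was accessible, and does not show that the gene was transcribed.

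A set of 3 upstream sequences is printed here for promoters described below, and a link between sequence and peaks was not tested. The sequences are those of Nanog, which had no promoter peak in any library, of Tfcp2l1, which had the strongest, and of Zfp42. Of the genes with a RefSeq promoter window, Zfp42 was the single one with an exact octamer match. Each is the 250 bases just upstream of the RefSeq start on GRCm38.p6, read 5′ to 3′ on the gene's own strand, with CpG dinucleotides in capitals. Nanog is chr6:122707239-122707488 on the plus strand, Tfcp2l1 is chr1:118627695-118627944 on the plus strand and Zfp42 is chr8:43307010-43307259 on the minus strand.
Nanog: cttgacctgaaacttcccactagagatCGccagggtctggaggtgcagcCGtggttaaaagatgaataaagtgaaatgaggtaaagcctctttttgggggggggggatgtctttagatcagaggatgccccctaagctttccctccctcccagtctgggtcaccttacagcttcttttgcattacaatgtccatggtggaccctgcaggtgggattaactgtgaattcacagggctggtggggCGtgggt
Tfcp2l1: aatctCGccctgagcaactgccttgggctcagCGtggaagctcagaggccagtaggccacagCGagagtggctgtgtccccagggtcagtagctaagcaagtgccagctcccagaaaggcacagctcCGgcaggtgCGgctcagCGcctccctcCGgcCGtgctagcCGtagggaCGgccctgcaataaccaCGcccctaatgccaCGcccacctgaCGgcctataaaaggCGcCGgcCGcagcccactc
Zfp42: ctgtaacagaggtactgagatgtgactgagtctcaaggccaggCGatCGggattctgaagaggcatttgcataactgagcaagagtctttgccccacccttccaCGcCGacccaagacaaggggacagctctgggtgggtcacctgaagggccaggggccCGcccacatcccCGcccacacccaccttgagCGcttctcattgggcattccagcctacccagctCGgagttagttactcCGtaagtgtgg
CpG was scarce upstream of Nanog, with 3 dinucleotides in the stretch shown, against 16 for Tfcp2l1 and 9 for Zfp42. A second RefSeq start of Esrrb, 60527 bp into the gene, also had 3 in its 250 upstream bases, and a peak covered it in all 6 libraries. The second start of Pou5f1 had 6, and no peak covered it in any library.

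The libraries held between 105754 and 133695 peaks, each with a q-value of at most 0.0983. Sequencing depth was not stated, and a relative background coverage recovered from the fold enrichments and p-values of narrow peaks stood in for it. It ran from 4.72 to 6.03 in the S7KO libraries and was 4.74 in WT replicate 1 and 6.0 in WT replicate 4, but only 2.92 in WT replicate 2, which also held the fewest peaks. Sirt7 itself had a promoter peak in all 6 libraries, and since the part of the gene that was deleted is not given in the sources used here, this checked no label. Promoter peaks were present in all 6 libraries at 13 of 13 undifferentiated spermatogonia markers, but also at 7 of 8 Sertoli, 5 of 6 Leydig, 4 of 4 peritubular myoid and 4 of 6 macrophage and endothelial markers. The exceptions were Rhox5 and Ptprc, with no promoter peak in any library, Hsd3b1, with 1 in WT replicate 4 alone, and Pecam1, with 1 in 3 libraries. Promoter peaks therefore did not tell germ cells from somatic cells, and the share of other cells was not tested here. The study reports that most cells isolated this way stained for PLZF in flow cytometry, shown for WT. In these bulk samples fewer open cells and less opening per cell cannot be told apart.

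A promoter peak was found in all 6 libraries at 9 of the 10 genes, in both genotypes alike, and the exception was Nanog. In lists cut to an equal number of peaks this held for 7 genes, since the Pou5f1 and Tfap2c promoters then lost a call. Among all protein-coding genes, 74.0% had a promoter peak in all 6 libraries and 21.8% had one in none. Promoter peaks of the 10 genes were placed by their rank, the percentage of a library's peaks with a smaller q-value, so that 0% is the strongest peak of a list. A rank is a place within 1 list and not an amount of accessibility. Over the 9 genes with a promoter peak, the median of the mean rank was 60.6%, against 8.24% for all genes with a promoter peak in every library. Their median fold enrichment, the ratio of a peak to the local background averaged over the peak's length, was 2.86, against 4.86 for all such genes. The peaks were not narrow, with a median width of 1848.3 bp against 1410 bp. The promoters of this group were thus called as reproducibly as most promoters but stood low in the lists. Both fold and q-value of a broad peak are averages over its length, so a wide peak can stand low despite a high part. Ranks were not adjusted for width, and its share in the low ranks was not tested.

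Order in the lists ran from Tfcp2l1, with a mean rank of 3.48% over the 6 libraries, through Zfp42 (20.2%), Klf4 (24.5%) and Sox2 (40.0%) to Prdm14 (60.6%), Esrrb (62.2%), Dppa3 (63.0%), Pou5f1 (75.7%) and Tfap2c (79.4%). Tfcp2l1 stood clear of Zfp42, and Klf4 of Sox2, in all 6 libraries. Zfp42 and Klf4 overlapped, as did each neighbouring pair from Prdm14 down to Tfap2c. Sox2 ended at 47.5% and Prdm14 began at 50.5%, while the best Esrrb library, at 46.6%, reached into the Sox2 range. The plot of promoter ranks shows this order with both genotypes side by side.

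**Figure D1:**
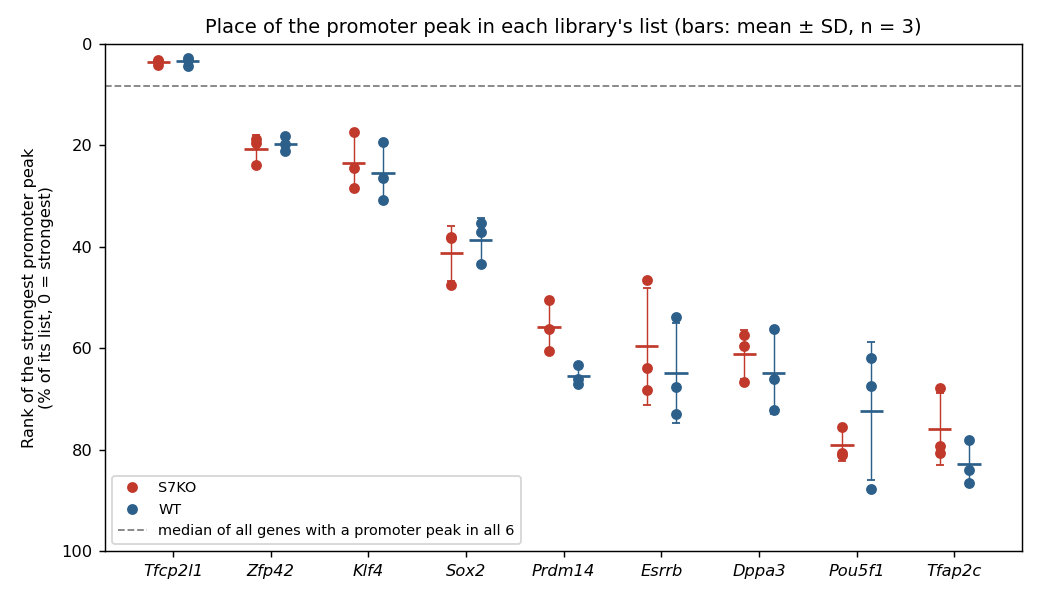
Rank of the strongest promoter peak in each library's own list (vertical axis, % of the list, 0 = strongest and at the top) for the 9 genes with a promoter peak in all 6 libraries, as points for S7KO (red, n = 3) and WT (blue, n = 3) with mean ± SD. The dashed line is the median of all genes, 8.24%, and only Tfcp2l1 lies on its strong side, while Prdm14 is the single gene at which the genotypes do not overlap.

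Pou5f1 lies on chromosome 17 at 35506032 to 35510777 (plus strand, gene 18999), and its product OCT4 is the POU-domain factor at the centre of the pluripotency network. Its promoter peak had ranks of 81.1%, 75.5% and 80.7% in the S7KO libraries, listed here and throughout as replicates 1, 2 and 4, and of 67.4%, 87.7% and 62.0% in the WT libraries in the same order. The WT libraries enclosed the S7KO values on both sides, with WT replicate 2 the weakest and WT replicate 4 the strongest of the 6. The S7KO mean of 79.1% ± 3.09 and the WT mean of 72.4% ± 13.6 (SD, n = 3 per genotype) did not differ beyond this spread (a gap of 6.72 percentage points, p = 0.4 by exact permutation), and the gap was 1.52 points without WT replicate 4 and 14.4 without WT replicate 2. Its fold enrichment of 2.36 to 2.92 was among the lowest of all promoters, with only 2.29% of genes at or below its mean.

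The strongest peak in the Pou5f1 window was not at its own promoter. A region from 35516166 to 35517899, which begins 5389 bp past the 3′ end, ranked between 3.91% and 5.54% in every library, and the 5′ ends of Tcf19 and Cchcr1 lie within 1 kb of it. A pair of regions lay upstream. The farther, 7227 to 6664 bp from the 5′ end, ranked between 48.9% and 60.4% with overlapping genotypes. The nearer, 3685 to 3130 bp upstream, ranked at 61.8%, 64.3% and 59.3% in S7KO and at 81.6%, 99.5% and 69.4% in WT. Every S7KO library placed this region higher than every WT library, and WT replicate 2 held it near the end of its list. A further small region inside the gene was called in S7KO replicates 1 and 2 and WT replicate 4, and neither it nor any other peak covered the second RefSeq start at 35508807.

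Nanog, a homeodomain factor that stabilises the pluripotent state, lies on chromosome 6 at 122707489 to 122714633 (plus strand, gene 71950). No peak came within 3 kb of its 5′ end in any library, and neither its first RefSeq start nor the second, at 122707565, was covered. The window was not closed, however. An upstream region from 122702023 to 122703285, which is 5466 to 4204 bp from the 5′ end, ranked at 7.27%, 8.23% and 9.02% in S7KO and at 10.3%, 8.36% and 6.40% in WT. This was one of the strongest regions of the whole group, with a fold enrichment of 5.68 to 6.54, and the genotypes overlapped. No other 5′ end lies within 1 kb of it. Past the 3′ end, a region 5248 bp downstream was called in all 6 libraries at ranks between 38.1% and 60%. Another, 9242 bp downstream, was called in every library but WT replicate 2.

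Sox2, an HMG-box factor that partners OCT4, is a gene without introns on chromosome 3 at 34649995 to 34652461 (plus strand, gene 20674), inside the long non-coding gene Sox2ot. Its promoter peak was one of the widest among all genes, from 3352 to 3459 bp, with 99.2% of genes at or below its mean width, and covered the whole 5′ part of the gene. It ranked at 47.5%, 38.3% and 38.1% in S7KO and at 35.4%, 43.5% and 37.0% in WT, with overlapping genotypes. The means were 41.3% ± 5.37 and 38.7% ± 4.29 (SD, n = 3 per genotype, p = 0.5 by exact permutation). All 5 regions in the Sox2 window were called in all 6 libraries. The strongest by mean rank, from 34642103 to 34643027 and 7892 to 6968 bp upstream, ranked at 28.8%, 29.5% and 28.0% in S7KO and at 40.2%, 59.0% and 38.9% in WT. The S7KO libraries were tightly grouped and all stood above the WT libraries, of which WT replicate 2 was the weakest.

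The map of peaks by library shows the position of each of these regions and how closely the 6 libraries agreed in outline.

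**Figure D2:**
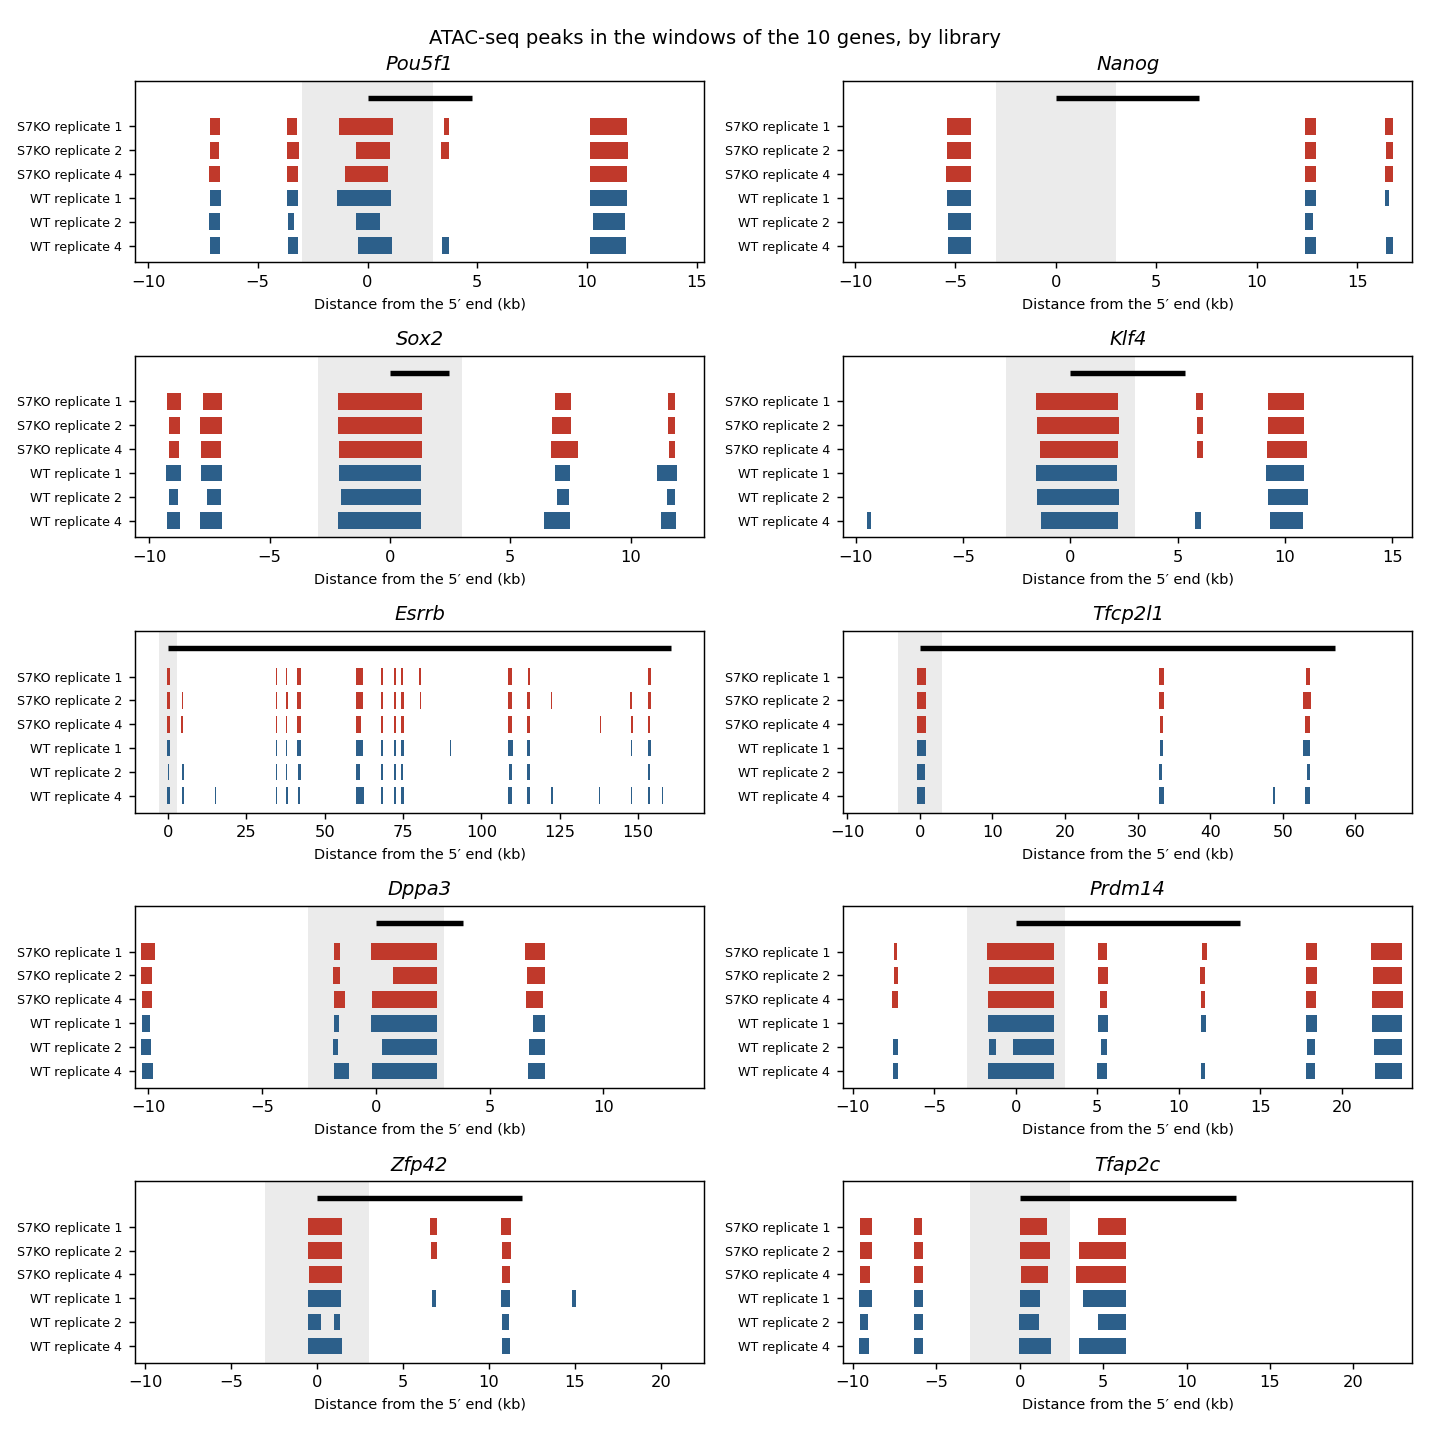
Peaks of the 6 libraries (rows, S7KO in red and WT in blue) along the window of each of the 10 genes, with distance from the 5′ end in kb on the horizontal axis, the gene as a black bar and the promoter window of 3 kb on either side of the 5′ end shaded. The shaded window of Nanog is empty in all 6 rows, those of the other 9 genes hold a peak in every row, and 9 of the 18 regions that are missing from 1 or more rows lie inside Esrrb.

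Of the naive network, Klf4, a zinc finger factor, is a minus-strand gene on chromosome 4 at 55527137 to 55532475 (gene 16600). Its promoter peak was 3604 to 3839 bp wide, with 99.6% of genes at or below its mean width. This peak had a low average fold enrichment, from 2.4 to 2.48. It ranked at 28.4%, 24.5% and 17.3% in S7KO and at 26.4%, 30.8% and 19.3% in WT, and the genotypes overlapped (means 23.4% ± 5.61 and 25.5% ± 5.81, SD, n = 3 per genotype, p = 0.7 by exact permutation). It was the strongest peak of its window. A broad region that begins 3756 bp past the 3′ end ranked between 62.4% and 71.9% in all 6 libraries. A weak region 487 bp past the 3′ end had a peak in every S7KO library and in WT replicate 4, at ranks from 80.9% to 99.8%.

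Tfcp2l1, a CP2-family factor of naive stem cells that is also used in epithelia such as kidney, lies on chromosome 1 at 118627923 to 118685168 (plus strand, gene 81879). Its promoter peak was the strongest of the group, at 3.09%, 3.38% and 4.12% in S7KO and at 3.22%, 4.33% and 2.73% in WT. The values of the genotypes lay within one another (means 3.53% ± 0.534 and 3.43% ± 0.818, SD, n = 3 per genotype, p = 0.9 by exact permutation). It was narrow, from 1095 to 1260 bp, and had a high fold enrichment of 6.82 to 7.60, at or above that of 90.0% of genes. Inside the gene, 2 regions were called in all 6 libraries, the first 32985 bp and the second 52798 bp from the 5′ end, at ranks from 35.3% to 73.2%. Both ranked lowest in WT replicate 2, at 72.9% and 73.2%.

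Zfp42 encodes REX1, a zinc finger protein that is a classical mark of naive cells, and is a minus-strand gene on chromosome 8 at 43295067 to 43307009 (gene 22702). The promoter peak ranked at 19.5%, 18.8% and 23.9% in S7KO and at 21.2%, 18.1% and 19.8% in WT, with overlapping genotypes (means 20.7% ± 2.76 and 19.7% ± 1.55, SD, n = 3 per genotype, p = 0.7 by exact permutation). It was 1890 to 1974 bp wide in 5 libraries, and in WT replicate 2 it was split into 2 peaks, of which the stronger was 729 bp wide. A region near the 3′ end, 10692 bp from the 5′ end, was called in all 6 libraries at ranks between 22.5% and 51.8%.

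Esrrb, an orphan nuclear receptor that can stand in for Nanog in stem cell self-renewal, is the longest gene of the group, on chromosome 12 at 86361117 to 86521628 (plus strand, gene 26380). Its window held 20 regions, and all 6 libraries had a peak in 11 of them. The promoter peak ranked at 46.6%, 64.0% and 68.3% in S7KO and at 67.6%, 53.9% and 73.0% in WT, a wide and overlapping spread (means 59.6% ± 11.5 and 64.8% ± 9.85, SD, n = 3 per genotype, p = 0.6 by exact permutation). It was narrow, from 554 to 908 bp, with only 8.20% of genes at or below its mean width. The strongest region lay inside the gene, from 86429178 to 86429830 and 68061 to 68713 bp from the 5′ end. It ranked at 7.85%, 8.54% and 14.2% in S7KO and at 11.2%, 14.3% and 16.7% in WT, and the genotypes overlapped.

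A second RefSeq start of Esrrb, at 86421644 and 60527 bp into the gene, was covered by a peak in all 6 libraries. The region around it, from 86420960 to 86423532, ranked at 36.3%, 27.8% and 26.2% in S7KO and at 31.8%, 24.1% and 28.4% in WT, with overlapping genotypes. In each library this internal start ranked better than the promoter at the outer 5′ end. Both starts had 7 CpG in their RefSeq window, so these windows did not differ in CpG number.

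Of the primordial germ cell genes, Prdm14, a PR-domain regulator needed to specify these cells, is a minus-strand gene on chromosome 1 at 13113428 to 13127163 (gene 383491). Its promoter peak was 4026 to 4114 bp wide in 5 libraries, and in WT replicate 2 it was split into 2 peaks, of which the stronger was 2557 bp wide. The rank was 56.2%, 60.6% and 50.5% in S7KO and 63.4%, 66.0% and 67.1% in WT, so that each S7KO library placed it higher than each WT library. The means were 55.8% ± 5.08 and 65.5% ± 1.87 (SD, n = 3 each), and the difference of -9.71 percentage points had an exact permutation p = 0.1, the smallest that 3 against 3 libraries allow, and an adjusted p = 1. Without 1 library the difference stayed between -12.1 and -7.06 points. By rank WT replicate 4 was the weakest WT library, while WT replicate 2, with its split peak, had the lowest −log10 q of the 6, at 3.77. The difference depended on how peaks were ranked. In lists cut to an equal number of peaks the values were 63.7%, 73.4% and 63.7% in S7KO and 71.3%, 66.0% and 84.8% in WT, and by fold enrichment they were 82.9%, 84.2% and 72.0% in S7KO and 87.9%, 83.2% and 88.0% in WT. The genotypes overlapped under both.

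A region past the 3′ end of Prdm14, from 13103424 to 13105380 and within 1 kb of the 5′ end of the long non-coding gene Gm39592, had the opposite order. It ranked at 19.1%, 13.6% and 19.8% in S7KO and at 11.4%, 13.3% and 7.31% in WT, so that every WT library placed it higher. S7KO replicate 2 and WT replicate 2 stood only 13.6% against 13.3% apart. It was the strongest region of the window by mean rank. Another downstream region, which begins 4067 bp past the 3′ end, ranked between 13.6% and 18.1% with overlapping genotypes.

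Tfap2c, an AP-2 factor that acts with Prdm1 and Prdm14 in germ cell specification, lies on chromosome 2 at 172545678 to 172558622 (plus strand, gene 21420). Its promoter peak was the weakest of the group, at 67.9%, 80.7% and 79.3% in S7KO and at 78.1%, 84.0% and 86.6% in WT. S7KO replicate 1 was the strongest, and the genotypes overlapped (means 75.9% ± 7.01 and 82.9% ± 4.33, SD, n = 3 per genotype, p = 0.3 by exact permutation). The fold enrichment of 1.9 to 2.32 put it at the bottom of all promoters, with 0.132% of genes at or below its mean. Stronger peaks flanked it. A region 9645 to 8869 bp upstream ranked at 11.7%, 14.2% and 17.6% in S7KO and at 15.0%, 13.9% and 12.7% in WT, and a broad region that begins 3395 bp inside the gene ranked between 34.4% and 51.2%.

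Dppa3, whose product protects DNA methylation in the early embryo and which is also switched on in primordial germ cells, lies on chromosome 6 at 122626424 to 122630271 (plus strand, gene 73708). A broad peak over its 5′ part ranked at 57.5%, 59.6% and 66.6% in S7KO and at 56.2%, 72.2% and 66.1% in WT, with overlapping genotypes (means 61.2% ± 4.79 and 64.9% ± 8.09, SD, n = 3 per genotype, p = 0.7 by exact permutation). A second, weaker promoter region, 1899 to 1200 bp upstream, ranked at 67.6%, 64.9% and 80.9% in S7KO and at 93.3%, 87.0% and 84.5% in WT. Every S7KO library placed this region higher, although S7KO replicate 4 and WT replicate 4 were close. The strongest region of the window lay 2698 bp past the 3′ end and ranked at 22.5%, 23.5% and 30.5% in S7KO and at 20.2%, 19% and 23.8% in WT, again with overlap.

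The promoter peak was therefore the best ranked peak of its window in every library at 3 of the 9 genes, Klf4, Tfcp2l1 and Zfp42. These ranks make no allowance for peak width. Among all genes with a promoter peak in all 6 libraries this held for 56.7%. At the other 7 genes, Nanog included, the region with the best mean rank lay elsewhere, upstream at Nanog, Sox2 and Tfap2c, downstream at Pou5f1, Dppa3 and Prdm14, and inside the gene at Esrrb. At Pou5f1 and Prdm14 that region lay at the 5′ end of another gene. The promoter regions of Pou5f1, Klf4 and Esrrb also lay within 1 kb of the 5′ end of a second gene each, Gm32362, Gm12506 and Gm40483, and a peak there cannot be assigned to either gene.

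Merging the peaks of the 6 libraries where they overlapped or touched gave 59 regions in the 10 windows. All 6 libraries had a peak in 41 of these (69.5%), against 57.1% of all merged regions. All 10 promoter regions were called in all 6, as were 8 of 10 upstream, 8 of 11 downstream and 15 of 28 gene body regions. The 18 regions called in fewer libraries were mostly narrow, with a median width of 363 bp against 1025 bp, and 9 of them lay in Esrrb. A merged region spans the outlines of all its peaks, so its width also depends on the number of libraries merged. WT replicate 4 had 13 of the 18 and WT replicate 2 had 3, while the other libraries had between 7 and 11. No region was called in all 3 S7KO and no WT libraries, a pattern shown by 0.416% of all merged regions, and none in all 3 WT and no S7KO libraries, shown by 0.0743%. No test was run on these counts. Without WT replicate 4 the weak region just past the 3′ end of Klf4 would have been 1 such S7KO region.

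Among the 41 regions called in all 6 libraries, 4 ranked better in every S7KO library than in every WT library (5.98% of all such regions in the lists did so), and 1 ranked better in every WT library (1.35%). The 4 were the regions upstream of Pou5f1 and Sox2, the upstream promoter region of Dppa3 and the promoter of Prdm14, and the 1 was the region past the 3′ end of Prdm14. The Sox2 region and the region past Prdm14 kept apart in lists of equal length, at a stricter q-value limit (−log10 q of at least 2) and by fold enrichment. The Pou5f1 region kept apart in lists of equal length and by fold enrichment, but at the stricter limit WT replicate 2 had no peak there. The Dppa3 region had a peak in only 3 libraries once lists were of equal length and in 5 at the stricter limit, and kept apart by fold enrichment. The Prdm14 promoter kept apart at the stricter limit alone. The plot of region ranks by genotype places these regions beside the other 36, at which the genotypes overlapped.

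**Figure D3:**
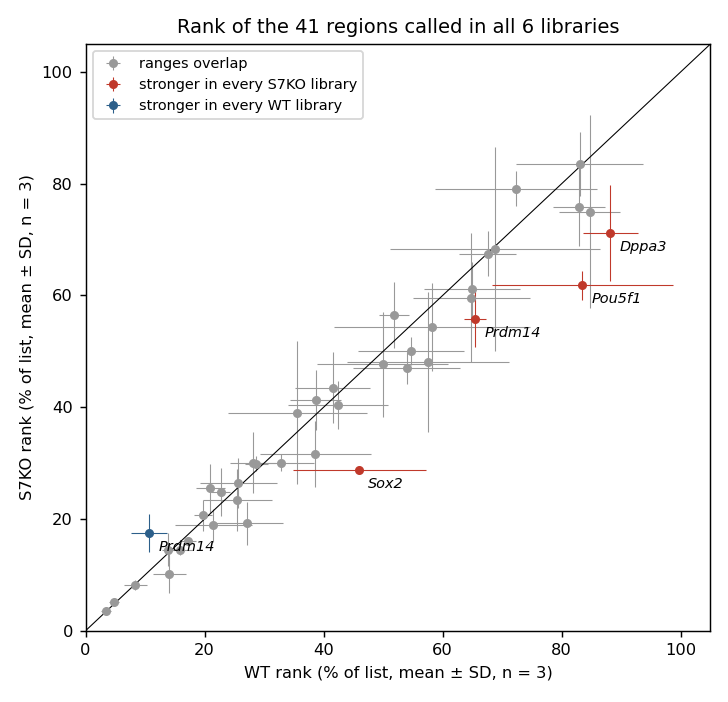
Mean rank in WT (horizontal) and in S7KO (vertical) of the 41 regions called in all 6 libraries, in % of the library's list, with SD over n = 3 libraries as bars and the line of equal rank. Regions better placed in every S7KO library are red (4, below the line), the region better placed in every WT library is blue (1, past the 3′ end of Prdm14), and the others are grey.

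The number of bases of a window covered by peaks was the second measure. Over all 10 windows it came to 51204, 53219 and 52442 bp in S7KO and to 52428, 41213 and 54012 bp in WT. Only WT replicate 2, the library with the lowest background coverage, stood apart from the others. The means were 52288.3 ± 1016.3 bp and 49217.7 ± 6977.3 bp (SD, n = 3 each), a difference of 3070.7 bp, which became -931.7 bp without WT replicate 2. Numbers of peaks were 48, 52 and 49 in S7KO and 49, 47 and 54 in WT, a difference of means of -0.333. The median share of a window covered was 16.0% for the 10 genes, against 8.04% for all genes tested. Window length was not matched between them. The share was 4.90% to 6.84% at Esrrb and 2.35% to 3.65% at Tfcp2l1, the longest genes. It was highest at Sox2, the shortest, with 22.8% to 29.4%.

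Covered length was higher in every S7KO library than in every WT library at 3 of the 10 genes, against 7.36% of all 18508 genes with a peak in the window, and higher in every WT library at 0, against 0.589%. Nanog had 2059, 2085 and 2179 bp in S7KO and 1914, 1550 and 1995 bp in WT. Klf4 had 5812, 5820 and 5743 bp in S7KO and 5599, 5670 and 5584 bp in WT. Prdm14 had 7750, 7745 and 7645 bp in S7KO and 7459, 5914 and 7521 bp in WT. At all 3 the S7KO values lay close together, and at Nanog and Prdm14 WT replicate 2 was far below the other WT libraries. The differences of 288.0 bp, 174 bp and 748.7 bp each had an exact permutation p = 0.1, the smallest possible, and an adjusted p = 1. Without WT replicate 2 they were 153.2 bp, 200.2 bp and 223.3 bp. In lists of equal length and at −log10 q of at least 2, Nanog and Prdm14 stayed apart and Klf4 did not, with differences of 125.3 and 58.7 bp at Klf4. With flanks of 3 kb none of the 3 stayed apart, since Nanog then had no peak in its window, and Sox2 was the 1 gene apart, by 49.7 bp.

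The genotypes overlapped at the other 7 genes, and no adjusted p was below 1. Pou5f1 had 5287, 4622 and 4632 bp in S7KO and 5154, 3380 and 4471 bp in WT. Esrrb, with the most peaks, had 10402, 12270 and 11451 bp in S7KO and 11596, 8851 and 12352 bp in WT. In both, WT replicate 2 was the lowest of the 6. This library was the lowest at 8 of the 10 genes and at 69.1% of all genes tested. Sox2 was the single gene with a lower mean in S7KO, at 5935.3 ± 189.4 bp against 6031 ± 795.6 bp (SD, n = 3 each). The mean was higher in S7KO at the other 9 genes, as it was at 77.7% of all genes tested, and the median difference was 354.2 bp against 194.7 bp. The plot of covered length shows the libraries of each gene.

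**Figure D4:**
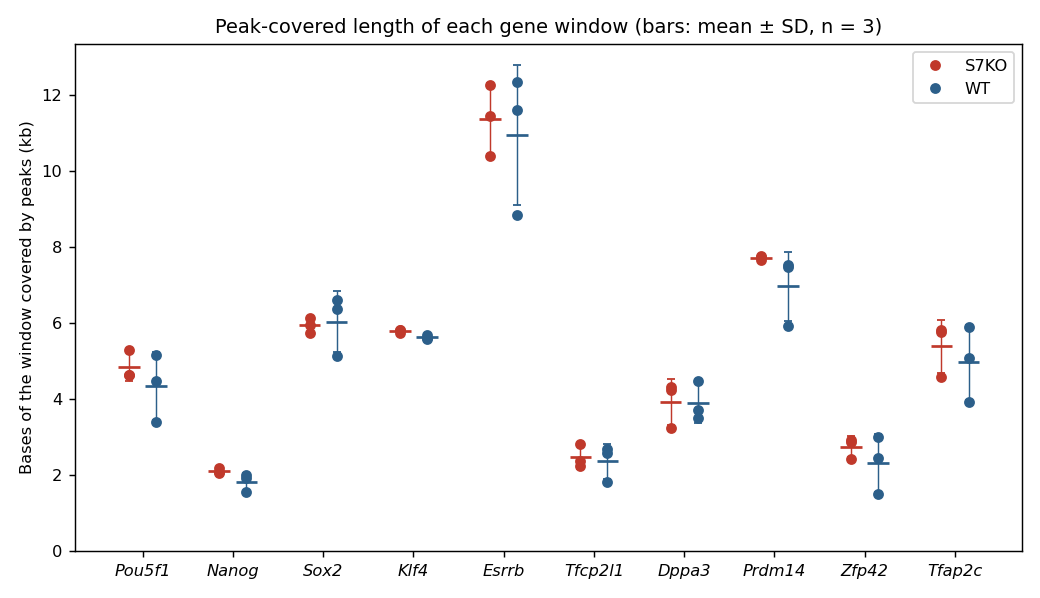
Bases of each gene window covered by peaks (vertical axis, kb) in the 3 S7KO (red) and 3 WT (blue) libraries, with mean ± SD. The genotypes are apart at Nanog, Klf4 and Prdm14, and the lowest of all 6 points is WT replicate 2 at 8 of the 10 genes.

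Promoter rank was better in every S7KO library at 1 of the 9 genes, Prdm14, against 5.23% of the 15863 genes with a promoter peak in all 6 libraries, and better in every WT library at 0, against 1.24%. The median difference of S7KO minus WT was -2.08 percentage points over the 9 genes and -0.287 over all genes. No gene of the whole table had an adjusted p below 1 by the exact permutation test on either measure, and none could have had a p under 0.05 with 3 against 3 libraries.

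The RefSeq promoter windows, which run from 250 bases before to 50 after the start, were available for 7 of the 10 genes, all except Dppa3, Prdm14 and Tfap2c. They were set beside the peaks for CpG, since CpG-rich promoters are open in most cell types. The number of CpG was 40 for Klf4, 27 for Sox2, 21 for Tfcp2l1, 11 for both Pou5f1 and Zfp42, 7 for Esrrb and 4 for Nanog, against a median of 7 over 32851 windows. Nanog, the gene without a promoter peak, thus had the fewest, with 0.192 of the CpG expected from its base composition, and Klf4 had 0.974. The protein-coding genes with a RefSeq promoter window were then divided at 4 CpG. That is the number at Nanog itself, so the limit is not independent of that gene. A promoter peak was found in all 6 libraries at 26.0% of the 5097 genes with 4 CpG or fewer and in none at 64.8%. At the 12394 genes with more than 4 CpG these shares were 91.9% and 5.95%. By mean promoter rank Tfcp2l1, with 21 CpG, and Zfp42, with 11, stood above Klf4 and Sox2, with 40 and 27. Esrrb, with 7, and Pou5f1, with 11, stood below all of these. Rank was not tested against CpG number. The second start of Pou5f1 had 6 CpG in its window, above the limit of 4, and no peak over it in any library.

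Letters recognised by the members' own protein families were looked for on both strands of these windows, which came to 10 because Pou5f1, Nanog and Esrrb have 2 starts each. The octamer ATGCAAAT, read by POU factors, was found in 1, that of Zfp42, where it reads ATTTGCAT along the sequence shown above, beginning 186 bases before the start, and so stands as the octamer on the opposite strand. It occurs in 1.74% of all windows. The SOX letters ACAAAG were found in 1 window, that of Sox2 itself, against 18.7% of all windows, and the ESRRB letters TCAAGGTCA in 0, against 0.423%. The TFAP2 letters GCCNNNGGC were found in 5 of the 10 windows, against 16.6% of all, and the KLF and SP letters GGGCGG in 4, against 35.7%. The overlapping pair of Nanog windows shares most of its bases. Only these exact letters were counted, so a window without a match may hold a near match. The Nanog sequence shown above holds ttttgcat and then acaatg, each 1 letter away from the octamer and the SOX letters. Upstream of Sox2 stands atgcaaaa, also 1 letter away from the octamer. Near matches were not counted over all windows, so no share stands beside these examples and they set neither gene apart. A match is a description of the sequence and not of binding.

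The other 32 genes of the pluripotency and primordial germ cell list gave the setting. A promoter peak was present in all 6 libraries at 31, and Fbxo15, the exception, had one in every library but WT replicate 2. Their median mean rank was 28.2%, between that of the 9 genes above and that of all genes. All 7 other primordial germ cell genes had a promoter peak in all 6 libraries, with a median of 17.8%, and Prdm1, the partner of Prdm14 and Tfap2c, had a mean rank of 3.41%. Of the 32, 2 had a better rank in every S7KO library, Nr5a2 and Lin28a, and 0 in every WT library. Otx2 was the 1 gene with more covered length in every S7KO library, and 0 had more in every WT library.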

How the data were processed

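The 6 libraries were ATAC-seq libraries. Per the labels and methods, the authors trimmed reads (Trim Galore 0.6.6), aligned them to mm10 (Bowtie2 2.4.4.1), kept unique, non-duplicate, non-mitochondrial fragments within a length range, shifted ends for Tn5 and called broad peaks per library (MACS2 2.2.5). Each deposited list gave a display score (not used further), a fold enrichment (a ratio to local background), and p-values and q-values as −log10. Fold, p-value and q-value of a broad peak are averages over the peak. No fragment counts were used here, so the DiffBind test was not repeated. Which fragment lengths entered the calls could not be settled, because the text also speaks of nucleosome-free profiles. Low depth gives fewer, narrower peaks and higher q-values, so covered length and calls move with depth.

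Gene positions came from a RefSeq table of GRCm38.p6, and strand from the RefSeq promoter table (7 members) or from the GENCODE gene of the same symbol (3 members). A 5′ end was placed for 21436 of 21883 protein-coding genes. Exons and introns were not separated. The GRCm39 genome was not used, since the largest chromosome 1 coordinate, 195242313, follows GRCm38. A peak counted with at least 1 bp of overlap. Background coverage was the 1st percentile of the values solved from fold and p-value of peaks narrower than 300 bp. The genotype test was exact and two-sided, a permutation over 20 assignments of libraries, Benjamini-Hochberg adjusted over all genes tested. Labels do not say that libraries came from separate mice, and the study calls them biological replicates, so p-values measure only the spread between these libraries. A second label numbers them differently, but joins the same libraries. Same-numbered libraries were not taken as pairs, since the correlations of their deviations were 0.106, -0.00239 and 0.142. All 10 members are named, as are genes with a 5′ end within 1 kb of a region of theirs and list genes short of 6 libraries. Other list genes, and the regions and genes that stood apart, were named after their values were seen. Members and lists were chosen with earlier results of these data known. Alternatives were lists of equal length (105754 peaks), −log10 q of at least 2, 3 kb flanks, a 1 kb promoter, at least 50% of a region covered, replicates 1 and 4 only, a replicate block and each library left out. The region rank counts and the rank by fold enrichment were added after seeing the data. Scripts were tested on simulated data and used Python 3.11.15, numpy 2.4.6, pandas 2.3.3 and scipy 1.17.1.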

Additional observations from a re-analysis of the deposited data

How the results depend on the processing

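Peak lists without fragment counts, 3 libraries per genotype and the low background coverage of WT replicate 2 limit these results. A region missing from a list may lie just under the caller's threshold. The counts that moved by over 1.5 times, the differences that changed sign and the moves of over 1.5 times at the genes that stood apart follow, and the cause was not tested. Sizes at the other genes also moved and are not listed. With 3 kb flanks, 1 gene was apart in covered length (in every S7KO library), 26 regions were called in all 6 libraries, 2 regions ranked better in every S7KO and 0 in every WT library, and the covered difference was 49.7 bp at Sox2, -15.7 bp at Dppa3, 0 at Nanog and 489.7 bp at Prdm14. With replicates 1 and 4 only, 6 genes were apart in covered length, 3 of them higher in every WT library, 3 were apart in promoter rank and 3 regions ranked better in every WT library. The covered differences were then -1047.5 bp at Esrrb, -324 bp at Tfcp2l1, -44 bp at Zfp42, -315 bp at Tfap2c, 164.5 bp at Nanog, 207.5 bp at Prdm14 and -1397 bp over all 10 windows, the peak number difference -3, and the rank differences 0.0208 at Klf4 and 0.877 at Dppa3. In lists of equal length 0 genes were apart in promoter rank, 2 regions ranked better in every S7KO library, the covered difference was -314 bp at Pou5f1 and the rank difference 0.746 at Dppa3. With −log10 q of at least 2, the covered difference was 58.7 bp at Klf4 and that of peak numbers 0, 2 regions ranked better in every S7KO library, and by fold enrichment 0 genes were apart in promoter rank.

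With the replicate block, the pairing of same-numbered libraries, 2 genes were apart in promoter rank, 7 regions ranked better in S7KO and 4 in WT, covered length was higher in S7KO in all 3 pairs at 4 genes, and no other count changed. The replicates share only a number. With 1 library left out, 3 to 4 genes were apart in covered length, 3 to 4 higher in every S7KO and 0 to 1 in every WT library (1 without WT replicate 2), and 1 to 3 were apart in promoter rank (3 without WT replicate 2). Regions ranking better in every S7KO library numbered 4 to 10 (10 without S7KO replicate 4), in every WT library 1 to 4 (4 without WT replicate 4), and S7KO regions absent from WT 0 to 1. The covered differences then ran from -549.7 to 191.8 bp at Sox2, -599.7 to 1150.8 bp at Esrrb, -151 to 279.5 bp at Tfcp2l1, -163 to 383.5 bp at Dppa3 and -99.5 to 883.5 bp at Tfap2c, the lowest without WT replicate 2 in each. Over all 10 windows they ran from -931.7 bp (without WT replicate 2) to 5467.8 bp, and the peak number difference was -1.83 without WT replicate 2 and 1.67 without WT replicate 4. The rank differences ran from 1.52 to 14.4 at Pou5f1, -0.481 to 5.05 at Sox2, -5.19 to 0.960 at Klf4, -10.7 to 1.32 at Esrrb, -0.244 to 0.555 at Tfcp2l1, -7.95 to 0.0675 at Dppa3 and -0.542 to 2.02 at Zfp42. The 9 genes with a promoter peak in all 6 libraries stayed 9 with each library left out and were 7 in lists of equal length.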
